A study of Homo sapiens with 36 samples.

Results

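SERPINA1, SERPINB1, SERPINB2, SERPINB6, SERPINB8, SERPINB9, SERPINE2, SERPING1 and SERPINH1 are 9 serpin genes of human monocytes, and each was read in all 36 libraries. They were found by matching the listed symbols to the Ensembl gene identifiers of the count files, which hold 57500 gene rows, 42 of them with a symbol that starts with SERPIN. SERPINB2 and SERPINH1 were put on the list because they were higher in 10% CO2 in these same libraries, and the other 7 are relatives to set beside them. The cells were THP-1, an established human monocytic leukaemia line, carrying lentiviral hairpins as 3 separate lines: shNT with a non-target hairpin, shNR4A2 with a hairpin against the nuclear receptor gene NR4A2, and shNR4A3 with one against NR4A3. Each line was held for 4 h in pH-buffered medium that had been equilibrated to 5% CO2 (the normocapnic control) or 10% CO2 (hypercapnia), in the basal state or with lipopolysaccharide (LPS, a bacterial cell wall component) at 2.5 µg/mL for the final 2 h. This gave 12 conditions with 3 libraries in each. All cells, the shNT controls included, carried a viral hairpin, and since each hairpin was studied as 1 transduced line, a difference between lines cannot be told apart into hairpin and line.

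Serpins are proteins of a shared fold, and most of them are protease inhibitors that are used up as they work: the protease cuts an exposed loop, the inhibitor folds around it and the pair stays locked. Most members with a B in their name (clade B) remain inside the cell, where they guard the cytoplasm against proteases that leak from granules, whereas A1, E2 and G1 are secreted. SERPINB2 is plasminogen activator inhibitor 2, a well known product of activated monocytes. SERPINH1, also called HSP47, is the exception: it inhibits no protease and is a chaperone of the endoplasmic reticulum that binds folding procollagen, and its transcription is driven by heat shock factor.

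The targets named here are those of textbook biochemistry. SERPINA1 (alpha-1-antitrypsin) and SERPINB1 inhibit neutrophil elastase, SERPINB6 inhibits cathepsin G, SERPINB8 inhibits furin, and SERPINB9 inhibits granzyme B, the killing protease of cytotoxic lymphocytes. SERPINE2 (protease nexin-1) inhibits thrombin and urokinase at cell surfaces, SERPINB2 inhibits urokinase, and SERPING1 (C1 inhibitor) stops the proteases C1r and C1s that start the classical complement cascade. SERPINB1, SERPINB9 and SERPINB6 lie together on chromosome 6 of GRCh38, all on the minus strand (chr6:2832332-2842006, chr6:2887266-2903280 and chr6:2948159-2972165), in a span of 139.8 kb. SERPINB2 at chr18:63871692-63903890 and SERPINB8 at chr18:63969925-64019779 lie on the plus strand within 148.1 kb of each other. The remaining members are single: SERPINA1 at chr14:94376747-94390693 (minus strand), SERPINE2 at chr2:223975112-224039319 (minus strand), SERPING1 at chr11:57597387-57614853 (plus strand) and SERPINH1 at chr11:75562056-75572783 (plus strand).

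RefSeq promoter windows (GRCh38.p14, 250 bases before to 50 after an annotated start) were found for 8 of the 9 members, all but SERPING1. Shown are 4 windows that were picked for holding a match to a searched motif. Each is printed 5′ to 3′ along the gene, with motif matches in capitals.
SERPINH1, chr11:75562003-75562302 (plus strand): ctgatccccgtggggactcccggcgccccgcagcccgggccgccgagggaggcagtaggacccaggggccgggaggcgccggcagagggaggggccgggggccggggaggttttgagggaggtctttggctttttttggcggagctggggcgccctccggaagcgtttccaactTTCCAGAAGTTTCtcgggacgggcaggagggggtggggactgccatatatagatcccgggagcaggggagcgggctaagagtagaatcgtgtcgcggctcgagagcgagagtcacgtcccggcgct
SERPINB2, chr18:63887455-63887754 (plus strand): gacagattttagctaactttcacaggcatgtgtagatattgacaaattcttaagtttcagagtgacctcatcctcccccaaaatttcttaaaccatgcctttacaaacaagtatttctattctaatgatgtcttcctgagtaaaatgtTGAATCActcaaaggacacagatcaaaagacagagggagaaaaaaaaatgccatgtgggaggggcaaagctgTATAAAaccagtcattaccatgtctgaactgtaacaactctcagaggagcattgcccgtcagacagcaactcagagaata
SERPINB8, chr18:63969831-63970130 (plus strand): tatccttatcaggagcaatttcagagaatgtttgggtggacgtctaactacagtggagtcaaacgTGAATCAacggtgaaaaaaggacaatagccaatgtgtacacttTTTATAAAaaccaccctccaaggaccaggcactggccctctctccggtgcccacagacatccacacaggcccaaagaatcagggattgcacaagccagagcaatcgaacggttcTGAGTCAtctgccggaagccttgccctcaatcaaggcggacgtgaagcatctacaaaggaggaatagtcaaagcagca
SERPINB9, chr6:2903260-2903559 (minus strand): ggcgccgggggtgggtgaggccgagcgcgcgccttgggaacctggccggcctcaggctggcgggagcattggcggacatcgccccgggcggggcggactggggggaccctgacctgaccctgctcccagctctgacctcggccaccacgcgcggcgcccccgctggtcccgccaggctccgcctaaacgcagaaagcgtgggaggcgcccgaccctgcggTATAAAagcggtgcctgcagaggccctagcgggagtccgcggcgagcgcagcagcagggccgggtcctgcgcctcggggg

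The SERPINH1 window holds a full heat shock element (3 GAA units in alternating orientation, each set off by 2 bases), read on the minus strand and beginning at -76 from the start, a motif present in 0.49% of 35116 promoter windows; its shorter form GAANNTTC, which overlaps it at -71, is in 6.77% of them. SERPINB2 holds the AP-1 motif TGANTCA at -102 and a TATAAA box at -30, motifs found in 7.71% and 11.5% of windows. The SERPINB8 window holds TGANTCA at -185 and at -28 and a TATAAA match on each strand, which overlap each other at -142 and -140, and the SERPINB9 window holds a TATAAA box at -30. The other motifs searched on both strands were the NF-kappaB element (1.61% of windows), TGACGTCA (CRE, 1.85%), CCGGAAGT (ETS, 4.14%), AAAGGTCA (the NR4A element, 1.22%) and the interferon-stimulated element (3.57%), and none of these had a match in the 4 windows shown. Of the members not shown, SERPINB6 had a TATAAA match at -1. The windows of SERPINA1, SERPINB1 and SERPINE2 had no match to any motif searched. A match describes letters in a window, and a window without one says nothing of the factor.

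Library totals ranged from 16171161 to 23929138 counts in genes, with a median of 19639071. All 12 monocyte markers checked reached 1 TPM (a length-scaled share of the library's transcripts), summing to between 1944 and 5332 per library, whereas all 5 epithelial markers stayed under 1. Of the T cell list 2 of 6 reached it (summed 131 to 199 TPM), with the defining CD3D, CD3E, CD3G and CD8A under 1, of the B cell list 3 of 4 (summed 3.38 to 11.6 TPM), with MS4A1 under 1, and of the fibroblast and endothelial list 1 of 7. NR4A2 was lower in shNR4A2 than in shNT cells in all 4 conditions, with log2 fold changes between -1.67 and -0.91, all past an adjusted p of 0.05. NR4A3 was lower in shNR4A3 cells at 5% CO2 (-2.47), 5% CO2 with LPS (-0.82) and 10% CO2 with LPS (-1.11), whereas at 10% CO2 in the basal state its change of -0.39 did not pass (adjusted p = 0.735), so the library labels were borne out for the first line and in part for the other. The labels do not say whether the 3 libraries of a condition came from separate cultures, though the study's figure legends speak of 3 individual experiments. The p-values measure only the spread between these samples, part of which may be technical. That spread was larger than counting noise: between libraries of a condition the chi-square of the counts per degree of freedom was 6.62 to 29.6, where counting noise alone gives about 1. In bulk RNA, fewer cells of a type and less RNA per cell cannot be told apart.

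Levels are given as RPKM, counts scaled by exon length and by library size, the latter adjusted with the trimmed mean of M-values (TMM) method. Averaged over all 36 libraries, SERPINE2 (19.6), SERPINB1 (16.6), SERPINH1 (14.1) and SERPINB8 (13.9) had the highest levels, followed by SERPINB6 (6.48), SERPINB2 (2.44), SERPINB9 (1.71), SERPING1 (1.49) and SERPINA1 (1.00). The place of SERPINE2 comes from the LPS libraries, where its condition means were 14.0 to 88.2, against 0.661 to 0.948 in the basal state. The ratio of the highest to the lowest condition mean was 133 for SERPINE2, 13.0 for SERPINB9 and 11.7 for SERPINB2, and it fell through SERPINA1 (5.43), SERPING1 (4.94), SERPINB8 (3.75), SERPINB1 (2.42) and SERPINH1 (2.38) to 1.45 for SERPINB6, whose condition means stayed between 5.17 and 7.50 RPKM. SERPINA1, SERPINB9, SERPINB2 and SERPING1 rest on few reads in their lowest libraries (29, 16, 20 and 36 counts), whereas SERPINB8 and SERPINH1 never had fewer than 689 and 545.

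**Figure D1:**
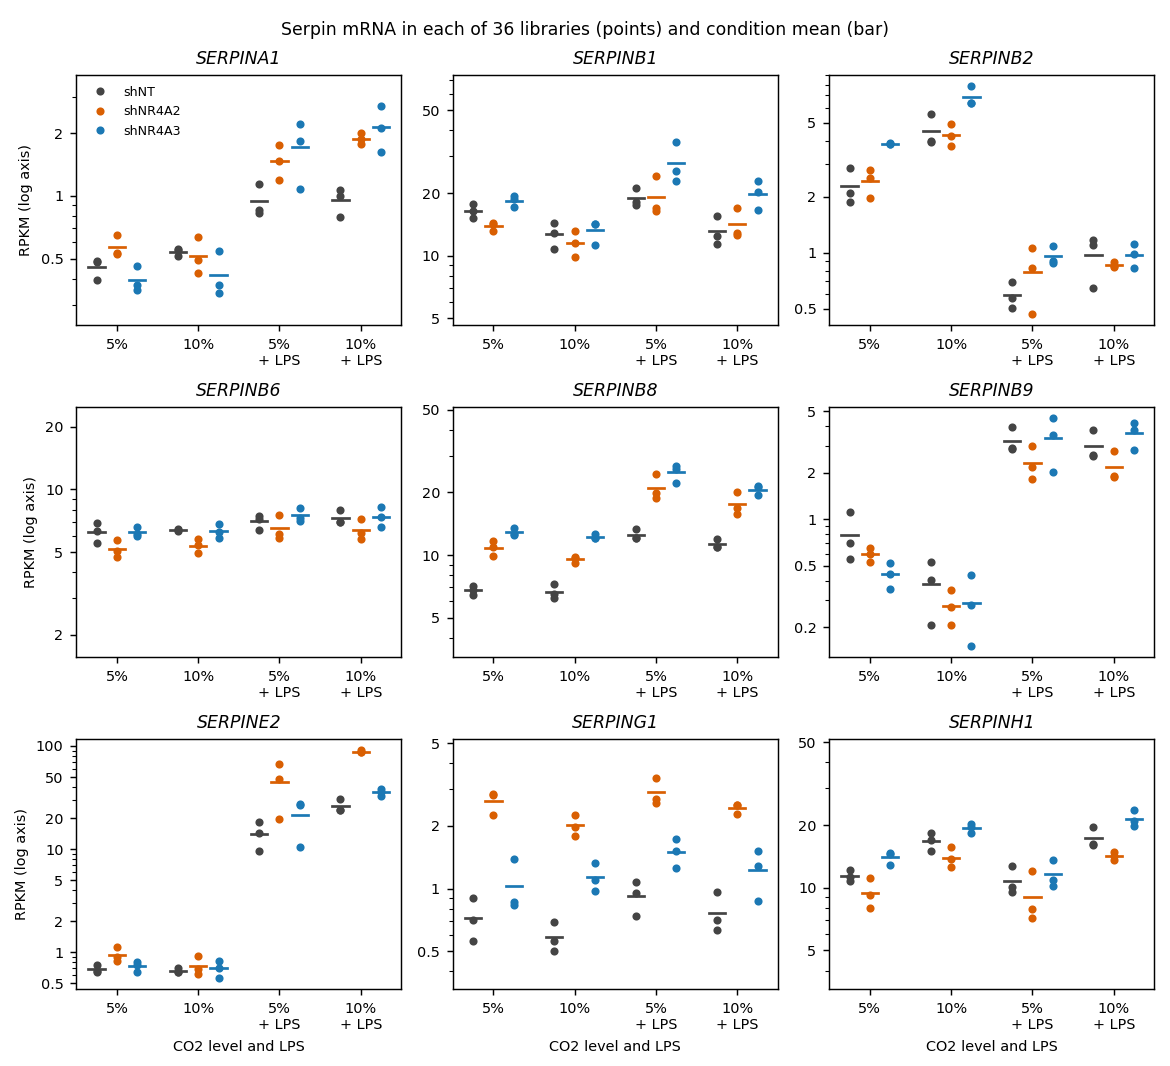
Level of each of the 9 serpins in RPKM (log axis) in every library, by line, CO2 and LPS, with points for the 3 libraries and a bar for their mean. SERPINE2 spans the widest range, a ratio of 133 between its condition means, and SERPINB6 the narrowest, 1.45.

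When the 12 conditions were put in order of their means, most neighbours overlapped in their libraries: of the 11 steps in each order, 1 was free of overlap for SERPINB1, SERPINB6 and SERPINH1, 2 for SERPINA1, SERPINB9 and SERPING1, 3 for SERPINB2 and SERPINE2 and 4 for SERPINB8. For SERPINE2, SERPINB9 and SERPINA1 one such step parted all LPS conditions from all basal ones, with LPS above. For SERPINB2 the same division ran the other way, basal above LPS. For SERPING1 1 of its 2 steps lay between lines, with the 4 shNR4A2 conditions above the other 8. The other lay within shNR4A2 cells, with 10% CO2 with LPS above basal 10% CO2. In single comparisons 34.6% to 52.2% of all genes had LPS and basal libraries without overlap. For shNR4A2 and shNT libraries it was 25% to 36.6%. The share of all genes divided so over the 12 conditions was not counted.

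The first comparison asks how the serpins of monocytes differ between 10% and 5% CO2. SERPINB2 and SERPINH1 were picked by this contrast, so their values are described and carry no test. SERPINB2 was higher in 10% CO2 in the basal state of all 3 lines and overlapped between CO2 levels where LPS was present, while SERPINH1 was higher in 10% CO2 in all 6 pairings of conditions. Among the relatives, SERPINB1 was the one member that fell with CO2 both with and without LPS.

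SERPINB2 in basal shNT cells read 1.86, 2.09 and 2.85 RPKM at 5% CO2 and 3.93, 5.57 and 3.97 at 10% CO2. The 10% libraries all lay above the 5% ones, and the difference was 0.99 on the log2 scale (SE 0.19). In shNR4A2 cells the 5% libraries read 1.96, 2.53 and 2.79 RPKM and the 10% libraries 4.24, 4.90 and 3.73, and in shNR4A3 cells 3.82, 3.81 and 3.90 became 6.38, 7.87 and 6.34. Neither pair overlapped, at differences of 0.82 (SE 0.18) and 0.85 (SE 0.12). In the presence of LPS the gene was at its lowest, and the groups overlapped in every line. The shNT libraries read 0.505, 0.691 and 0.568 RPKM at 5% and 0.641, 1.16 and 1.10 at 10%, the shNR4A2 libraries 0.468, 1.06 and 0.831 against 0.888, 0.850 and 0.836, and the shNR4A3 libraries 0.883, 1.08 and 0.903 against 0.987, 1.11 and 0.829. The log2 differences there were 0.73 (SE 0.27), 0.11 (SE 0.29) and 0.04 (SE 0.23). Fitted over the 3 lines together the SERPINB2 difference was 0.88 (SE 0.10) in the basal state and 0.28 (SE 0.16) with LPS, a gap of -0.60 (SE 0.18) that was not tested.

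Part of the SERPINB2 count is uncertain, since 547 of its 2748 exonic bases (19.9%) overlap exons of SERPINB10 on the same strand. SERPINB10 drew 7878 counts over all libraries against 4996 for SERPINB2. The labels do not say how shared bases were assigned, and the study's methods speak only of unique gene hit counts.

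SERPINH1 in basal shNT cells read 10.8, 11.3 and 12.2 RPKM at 5% CO2 and 14.97, 17.0 and 18.4 at 10%, and with LPS 9.53, 10.1 and 12.7 against 16.2, 19.6 and 16.0. The CO2 groups were apart in both states, by 0.56 (SE 0.11) and 0.69 (SE 0.12) on the log2 scale. In shNR4A2 cells 7.98, 9.21 and 11.1 RPKM stood against 12.5, 15.6 and 13.7, and with LPS 7.14, 7.89 and 11.99 against 13.6, 14.2 and 14.8, for differences of 0.57 (SE 0.14) and 0.65 (SE 0.17). In shNR4A3 cells 12.8, 14.7 and 14.5 RPKM stood against 18.4, 20.2 and 19.5, and with LPS 10.2, 10.9 and 13.6 against 20.8, 23.6 and 19.8. These differed by 0.48 (SE 0.08) and 0.89 (SE 0.11), again without overlap. Over the 3 lines together SERPINH1 gave 0.54 (SE 0.06) in the basal state and 0.75 (SE 0.09) with LPS, and the gap of 0.21 (SE 0.11) was not tested. Of all genes tested, 19.9% in basal shNT, 13.9% in basal shNR4A2, 22.0% in basal shNR4A3 and 30.0%, 21.5% and 25.1% in the same lines with LPS had CO2 groups without overlap in either direction. Since the contrast chose both genes, nothing is read from that count.

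Each of the 7 relatives was tested by the quasi-likelihood method of edgeR, with Benjamini-Hochberg adjustment over all 17720 genes kept. A gene is called at an adjusted p under 0.05. SERPINB1, which shields the cytoplasm from neutrophil elastase, was the 1 relative called in shNT cells with LPS (8.19% of all genes were called in that comparison) and the 1 called in basal shNR4A3 cells (1.13%). None of the 7 was called in basal shNT cells (0.615% of all genes), basal shNR4A2 cells (0.0113%), or with LPS in shNR4A2 (0.198%) and shNR4A3 cells (2.13%). At an unadjusted p under 0.05 those 4 comparisons held 2, 3, 1 and 2 of the relatives, and DESeq2 called SERPINB1 in the last of them (-0.48, adjusted p = 0.0386) and no relative in the other 3.

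SERPINB1 with LPS in shNT cells read 21.1, 18.1 and 17.5 RPKM at 5% CO2 and 15.5, 11.4 and 12.4 at 10%. The 10% libraries lay below the 5% ones, at a log2 fold change of -0.52 (SE 0.11, adjusted p = 0.0187, edgeR). The call was lost without shNT 5% CO2 + LPS replicate 1 (adjusted p = 0.0715 by edgeR) or 2 (0.0518), and without shNT 10% CO2 + LPS replicate 2 (0.082) or 3 (0.0743). In basal shNR4A3 cells it read 19.3, 18.6 and 17.1 RPKM at 5% and 14.2, 11.3 and 14.2 at 10%, again apart, at -0.46 (SE 0.10, adjusted p = 0.0386, edgeR). That call was lost on leaving out any 1 of the 6 libraries other than shNR4A3 5% CO2 replicate 3, with adjusted p from 0.0513 to 0.292, and when all 12 conditions shared 1 fit (0.158). The other 4 SERPINB1 changes lay between -0.48 and -0.28. In basal shNT cells SERPINB1 and SERPINB9 were both called without shNT 10% CO2 replicate 1 (log2 fold changes of -0.47 and -1.35, adjusted p = 0.0384 and 0.0389, edgeR).

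Fitted over the 3 lines with line as a term, the comparison has 18 libraries in each state and called 17.9% of all genes without LPS (9.18% higher, 8.72% lower) and 30.8% with it (15.3% higher, 15.5% lower). Same-numbered libraries of different lines deviated together in 3 of 4 shNR4A2 and 4 of 4 shNR4A3 comparisons with shNT. The fit treats the libraries as independent, so its p-values may be too small. Of the relatives, 2 fell with CO2 in the basal state, SERPINB1 (-0.37, SE 0.07, adjusted p = 0.000448, edgeR) and SERPINB9, the granzyme B inhibitor (-0.94, SE 0.19, adjusted p = 0.00151). With LPS 3 were called. SERPINB1 fell by 0.48 on the log2 scale (SE 0.10, adjusted p = 0.00158, edgeR) and SERPINB8, the furin inhibitor, fell by 0.23 (SE 0.06, adjusted p = 0.00399). SERPINE2, the cell surface inhibitor of thrombin and urokinase, rose by 0.88 (SE 0.22, adjusted p = 0.00688).

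SERPINB9 in the basal state read 1.12, 0.558 and 0.704 RPKM in shNT cells at 5% CO2 and 0.529, 0.208 and 0.406 at 10%, with the highest 10% library just under the lowest 5% one. In shNR4A2 cells 0.600, 0.658 and 0.529 RPKM stood over 0.350, 0.207 and 0.273, while in shNR4A3 cells 0.353, 0.445 and 0.523 overlapped 0.279, 0.152 and 0.434. Line by line the log2 fold changes were -1.05 (SE 0.32, adjusted p = 0.141), -1.11 (SE 0.28, adjusted p = 0.258) and -0.62 (SE 0.34, adjusted p = 0.388) by edgeR. In shNR4A2 cells same-numbered libraries deviated together, and with the replicate number as a block the adjusted p was 0.0367.

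SERPINE2 with LPS read 14.3, 9.54 and 18.2 RPKM in shNT cells at 5% CO2 and 24.2, 30.6 and 24.2 at 10%. In shNR4A2 cells 47.9, 19.5 and 67.0 RPKM stood below 86.9, 91.1 and 86.5, and in shNR4A3 cells 27.2, 10.6 and 26.6 below 38.5, 35.8 and 33.0. Every 10% group lay above its 5% group, and replicate 2 was the lowest library at 5% CO2 with LPS in each line. Alone, no line reached the threshold: the log2 fold changes were 0.91 (SE 0.26, adjusted p = 0.102), 0.98 (SE 0.41, adjusted p = 0.319) and 0.74 (SE 0.37, adjusted p = 0.366) by edgeR. DESeq2 called the shNT change (adjusted p = 0.0167), and edgeR called it without shNT 5% CO2 + LPS replicate 2 (0.70, adjusted p = 0.0416) or replicate 3 (1.15, adjusted p = 0.0195). In the same way the shNR4A2 change was called without shNR4A2 5% CO2 + LPS replicate 3 (1.39, adjusted p = 0.0431, edgeR) and the shNR4A3 change without shNR4A3 5% CO2 + LPS replicate 2 (0.42, adjusted p = 0.0415).

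SERPING1 with LPS changed by -0.26 over the lines (SE 0.11, adjusted p = 0.0785, edgeR). It passed with scaling by library size alone (0.0447), and without shNT 10% CO2 + LPS replicate 1 (0.0448) or shNR4A3 10% CO2 + LPS replicate 1 (0.0485). SERPINA1 gave 0.06 and 0.25 in the basal state and with LPS, and SERPINB6, the cathepsin G inhibitor, 0.04 and 0.01, none past the test.

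**Figure D2:**
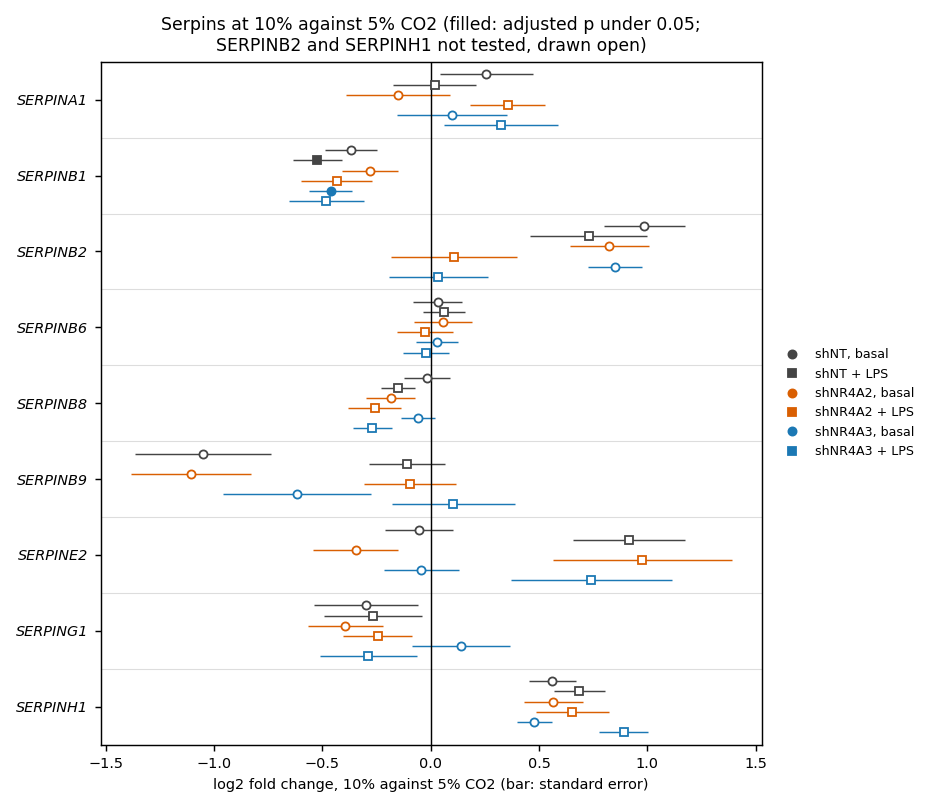
Difference between 10% and 5% CO2 (log2 fold change, bars of 1 SE) for each serpin in the 3 lines, basal and with LPS. SERPINB2 is well above 0 in the basal state and between 0.04 and 0.73 with LPS, SERPINH1 lies between 0.48 and 0.89 throughout, and SERPINB1 lies below 0 throughout.

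Whether the CO2 difference itself moved with LPS was tested over the lines for the 7 relatives, a test that called 2.93% of all genes. It too treats same-numbered libraries of different lines as independent, so its p-values may be too small. SERPINB9 and SERPINE2 were called: the log2 CO2 difference was higher with LPS by 0.92 for SERPINB9 (SE 0.26, adjusted p = 0.0423, edgeR) and by 1.03 for SERPINE2 (SE 0.27, adjusted p = 0.0338). Both calls were lost when the 12 conditions shared 1 fit with a separate mean for each condition (adjusted p = 0.0786 and 0.0617, edgeR). That of SERPINE2 was also lost with no filter on low counts (0.0709). Over all settings, single left-out libraries included, SERPINB9 lost its call in 20 of 43 and SERPINE2 in 10 of 43. Over these settings the difference stayed between 0.80 and 1.05 for SERPINB9 (adjusted p up to 0.0909, without shNT 5% CO2 replicate 1) and between 0.92 and 1.14 for SERPINE2 (adjusted p up to 0.0709). Between lines, the CO2 difference of the 7 relatives was not called in any of the 4 comparisons with shNT (0% of all genes called by edgeR). At an unadjusted p under 0.05 they held 192, 458, 412 and 370 genes, DESeq2 called none of the 7 either, and the differences between lines ranged from -0.41 to 0.43 on the log2 scale.

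SERPINH1 is usually studied with 2 sets of genes, the heat shock factor 1 chaperones and the enzymes and chains of collagen, and the lists used here were drawn up with earlier results on chaperones in these libraries known. All 14 chaperones were tested. Over the lines 10% CO2 raised 7 and lowered none in the basal state, and raised 12 and lowered none with LPS, where 17.9% and 30.8% of all genes were called, with list medians of 0.41 and 0.60 on the log2 scale against all-gene medians of 0.00. In basal cells the list medians were 0.34 in shNT, 0.40 in shNR4A2 and 0.42 in shNR4A3. With LPS they were 0.62, 0.46 and 0.67, and a difference between lines was not tested for the list. In shNR4A2 cells alone edgeR called 0 in both states (6 and 8 at an unadjusted p under 0.05), where only 0.0113% and 0.198% of all genes were called. In shNR4A3 cells 2 and 4 were called, beside 1.13% and 2.13% of all genes. Within shNT cells 3 were called in the basal state and 2 with LPS, beside 0.615% and 8.19% of all genes. The 2 with LPS were HSPD1 (0.69, adjusted p = 0.0168, edgeR) and its partner HSPE1 (0.59, adjusted p = 0.0216), the mitochondrial chaperonins. HSPH1, a nucleotide exchange factor for HSP70, differed most over the lines (0.85 basal, 1.33 with LPS), and the constitutive HSPA8 gave 0.56 and 0.70; these 2 were chosen after their values were seen. HSPA1A and HSPA1B are near-identical copies, so their counts are uncertain.

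Of 25 tested genes of 28, the 3 lines together called COL4A1 alone in the basal state (0.40), and with LPS MIA3, an export factor for procollagen (0.12), P4HB, a subunit of prolyl hydroxylase (-0.12), and COL6A2 (-0.14), all named after their values were seen, beside the same 17.9% and 30.8% of all genes. The list medians were -0.04 and -0.06, and none of the 25 was called in any single line by edgeR (at an unadjusted p under 0.05 the 3 lines held 3, 1 and 5 of them in the basal state and 2, 1 and 0 with LPS). Those single-line comparisons called between 0.0113% and 8.19% of all genes. Both lists are set beside SERPINH1 as a description, and the difference between them was not tested.

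**Figure D3:**
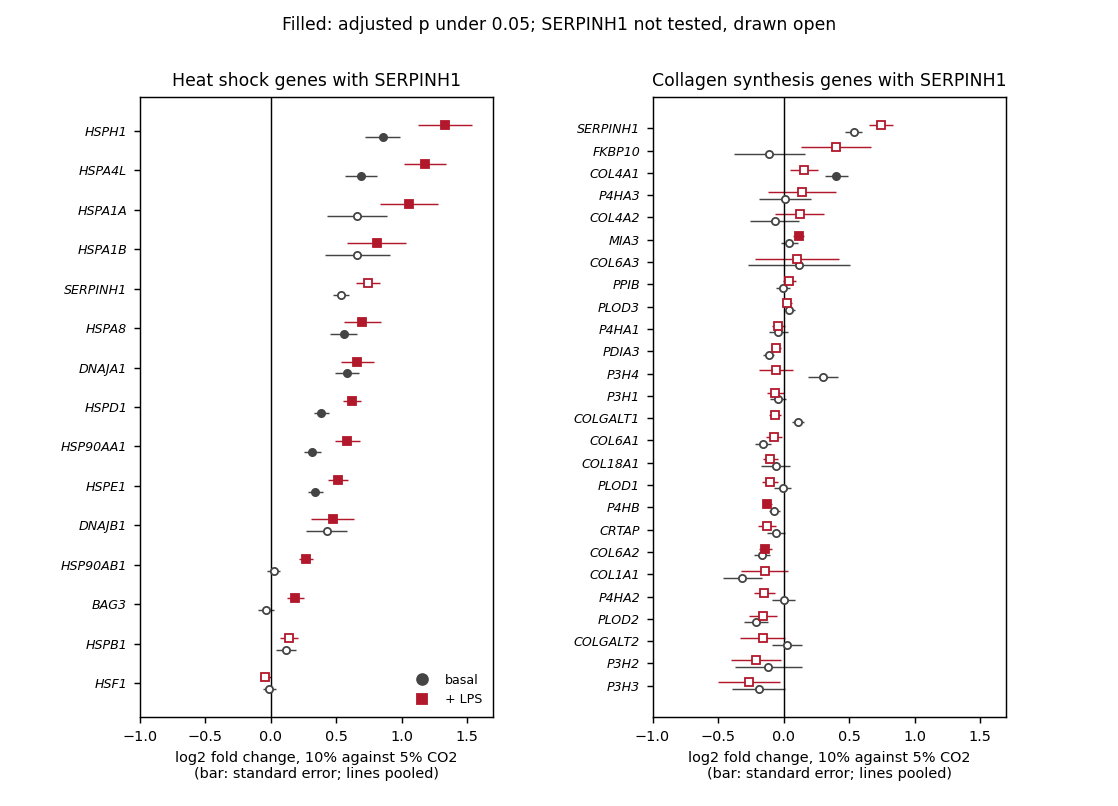
Difference between 10% and 5% CO2 (log2 fold change over the 3 lines) for SERPINH1, the 14 chaperones and the 25 collagen genes, basal and with LPS. The chaperone medians lie at 0.41 and 0.60 and the collagen medians at -0.04 and -0.06, with SERPINH1 at 0.54 and 0.75.

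The next comparison asks how 2 h of LPS altered the same genes, and here all 9 were tested. SERPINE2, SERPINB9, SERPINA1 and SERPINB8 rose with LPS and SERPINB2 fell, in each of the 3 lines and at both CO2 levels. SERPINB1 rose in shNR4A3 cells at both CO2 levels. SERPINB6, SERPING1 and SERPINH1 were not called in any of the 6 comparisons. The calls were thus 4 higher and 1 lower in shNT and shNR4A2 cells and 5 higher and 1 lower in shNR4A3 cells, out of 9. Of all genes, 22.9% were called in shNT cells at 5% CO2 (11.2% higher, 11.6% lower) and 31.2% at 10% (15.1% and 16.1%), 18.2% in shNR4A2 cells at 5% (8.91% and 9.26%) and 35.0% at 10% (16.5% and 18.5%), and 25.3% in shNR4A3 cells at 5% (11.9% and 13.4%) and 42.1% at 10% (20.6% and 21.5%). In the same order, 37.8%, 44.4%, 34.6%, 47.4%, 40.7% and 52.2% of all genes had LPS and basal libraries without overlap. Median changes of the 9 members lay between 0.31 and 0.61, against all-gene medians between -0.01 and 0.00.

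SERPINE2 moved most. In basal shNT cells it read 0.752, 0.647 and 0.662 RPKM at 5% CO2 and 0.637, 0.702 and 0.643 at 10%, and every LPS library given above lay far over them. The fold rise with LPS was 20.5 in shNT cells at 5% CO2 (log2 4.36, SE 0.27, adjusted p = 3.26e-05, edgeR) and 40.1 at 10% (5.33, SE 0.13, adjusted p = 2.73e-15). Basal shNR4A2 cells read 0.909, 0.814 and 1.12 RPKM at 5% and 0.693, 0.611 and 0.925 at 10%, and the rise was 47.1-fold and 118-fold (log2 5.56, SE 0.48, and 6.89, SE 0.16). Basal shNR4A3 cells read 0.643, 0.747 and 0.809 RPKM at 5% and 0.562, 0.827 and 0.712 at 10%, with rises of 29.2-fold and 51.0-fold. The SE was wider at 5% than at 10% CO2 in each line.

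SERPINB9 with LPS read 3.97, 2.90 and 2.84 RPKM in shNT cells at 5% CO2 and 3.79, 2.57 and 2.62 at 10%, above every basal library given earlier. The log2 rises were 2.02 at 5% and 2.96 at 10% (adjusted p = 1.56e-05 and 1.53e-07, edgeR). In shNR4A2 cells the LPS libraries lay between 1.82 and 2.98 RPKM and in shNR4A3 cells between 2.02 and 4.53, with rises of 1.96 and 2.99, and of 2.92 and 3.68, at 5% and 10% CO2. LPS and basal libraries never overlapped for this gene.

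SERPINA1, the elastase inhibitor of plasma, had the lowest mean over the 36 libraries. In shNT cells it went from 0.485, 0.480 and 0.394 RPKM to 0.860, 0.827 and 1.14 with LPS at 5% CO2, and from 0.555, 0.514 and 0.548 to 0.791, 1.06 and 1.00 at 10%. Both groups were apart, at log2 rises of 1.07 (SE 0.21, adjusted p = 0.00141, edgeR) and 0.83 (SE 0.20, adjusted p = 0.00359). The rises in the other lines were 1.36 and 1.89 (shNR4A2) and 2.11 and 2.36 (shNR4A3). SERPINB8 went from 7.09, 6.43 and 6.77 RPKM to 13.3, 12.1 and 12.1 in shNT cells at 5% CO2 (0.90, SE 0.09, adjusted p = 1.45e-06, edgeR), and its 6 rises lay in the narrow band from 0.76 to 0.95. Of its 5868 exonic bases 370 (6.31%) overlap HMSD on the same strand, a gene with 214 counts in all against 56195, and 257 (4.38%) overlap an unnamed gene on the opposite strand.

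SERPINB2, in contrast, fell. From the basal values given above, it fell by 1.94 on the log2 scale with LPS in shNT cells at 5% CO2 (SE 0.23, adjusted p = 7.6e-06, edgeR) and fell by 2.19 at 10% (adjusted p = 4.61e-07), with no basal library as low as any LPS library. In shNR4A2 cells the changes were -1.61 and -2.31, and in shNR4A3 cells -2.01 and -2.80. None of the 6 calls was lost under any setting or left-out library. The LPS libraries rest on as few as 20 SERPINB2 counts, so the low level is known less precisely than the basal one.

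SERPINB1 read 17.6, 16.4 and 15.2 RPKM in shNT cells at 5% CO2 and 21.1, 18.1 and 17.5 with LPS. In RPKM the lowest LPS library lay just under the highest basal one. The overlap check of the comparison placed all LPS libraries above the basal ones, so that order is not settled. The change of 0.21 did not pass (adjusted p = 0.141, edgeR). In shNR4A3 cells 19.3, 18.6 and 17.1 RPKM became 35.1, 22.9 and 25.5 at 5% CO2 (0.60, adjusted p = 0.00821, edgeR) and 14.2, 11.3 and 14.2 became 22.8, 16.6 and 20.2 at 10% (0.61, adjusted p = 0.00217). In shNR4A2 cells the changes were 0.45 (adjusted p = 0.0536) and 0.31 (0.0894) by edgeR. The first passed without shNR4A2 5% CO2 + LPS replicate 2 (0.0234) or 3 (0.035), the other without shNR4A2 10% CO2 replicate 1 (0.0312), and both with the replicate number as a block (0.0163 and 0.0104).

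SERPINB6 and SERPING1 each gave LPS changes above 0 in all 6 comparisons, at 0.17 to 0.32 and 0.13 to 0.54, and SERPINH1 changes from -0.27 to 0.16. Scaling by library size alone moves the median of all genes by -0.25 to -0.18 in the LPS comparisons. Under it SERPINB6 falls under 0 in both shNT comparisons and in shNR4A3 cells at 10% CO2, SERPING1 in shNR4A2 cells at 5% and shNR4A3 cells at 10%, SERPINB1 in shNT cells at 10% (-0.16), and SERPINH1 in all 3 lines at 10% (-0.18, -0.21 and -0.09). Values this near 0 are bound to change sign under a shift of that size, so no direction is read from them. SERPINH1 in shNR4A3 cells at 5% CO2 was called under it (-0.47, adjusted p = 0.0118, edgeR). With the replicate number as a block, which same-numbered libraries bear out in all LPS comparisons but shNT at 5% CO2, SERPINB6 was called in shNR4A2 cells (0.32 and 0.25, adjusted p = 0.0409 and 0.0458, edgeR) and in shNR4A3 cells (0.27 and 0.24, adjusted p = 0.0236 and 0.00403). In the same fits SERPINH1 was called in shNR4A3 cells in opposite directions at 5% CO2 (-0.28, adjusted p = 0.016) and 10% CO2 (0.16, adjusted p = 0.00781), and SERPING1 in shNR4A3 cells at 5% (0.56, adjusted p = 0.0251). Without a block, SERPING1 in shNR4A3 cells at 5% CO2 passed without shNR4A3 5% CO2 replicate 1 (0.0254) and SERPINH1 there without shNR4A3 5% CO2 + LPS replicate 3 (0.0306, edgeR). SERPINB6 at 10% CO2 passed without shNR4A3 10% CO2 replicate 1 (0.0387) or shNR4A3 10% CO2 + LPS replicate 2 (0.0274).

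**Figure D4:**
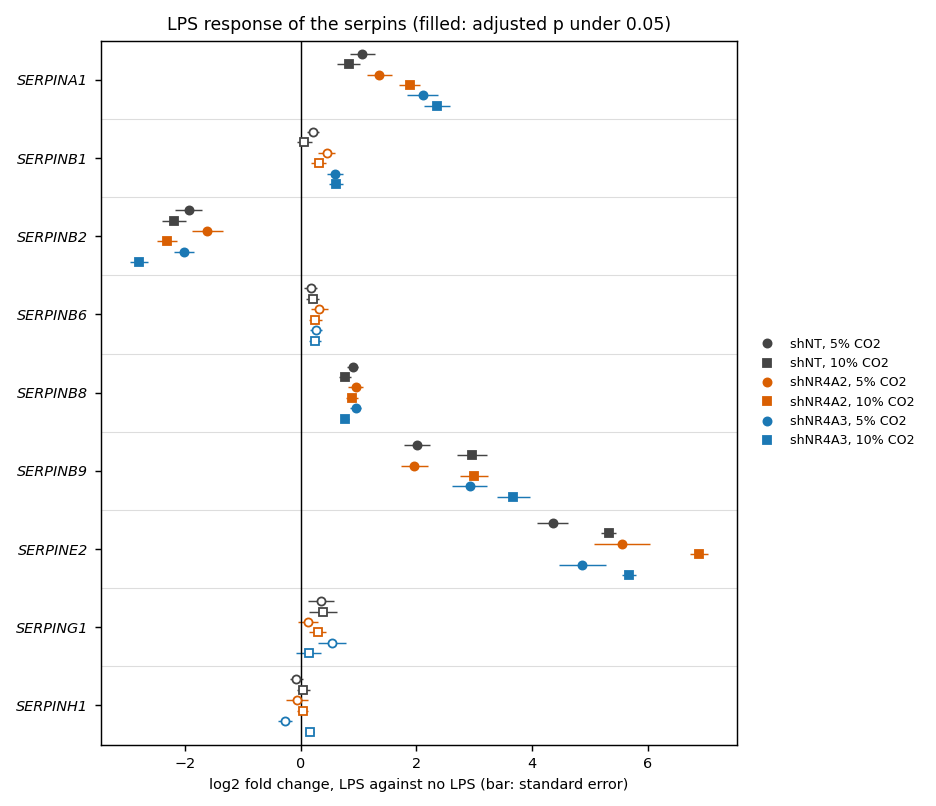
Change with LPS (log2 fold change, bars of 1 SE) for each serpin in the 3 lines at 5% and 10% CO2. SERPINE2 lies between 4.36 and 6.89, SERPINB9 between 1.96 and 3.68, and SERPINB2 between -2.80 and -1.61.

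The proteases and pathways that these serpins act on were followed in lists drawn up by function. In shNT cells at 5% CO2 LPS raised 1 of the 8 granule and lysosomal proteases tested of 13 listed, and lowered none. Of all genes 22.9% were called there (11.2% higher, 11.6% lower). The 1 called was CTSC (1.11, adjusted p = 1.39e-08, edgeR), the activator of granule serine proteases. The list median was 0.13 and the all-gene median 0.00. Over the lines CO2 called none of the 8 in either state by edgeR, with 2 in each at an unadjusted p under 0.05. Of 14 tested plasminogen and coagulation genes LPS raised 2 and lowered 2, where 22.9% of all genes were called. F3 (tissue factor) rose by 0.61 (adjusted p = 0.000169), THBD (thrombomodulin, the thrombin cofactor that activates protein C) fell by 2.43 (adjusted p = 5.39e-06) and VLDLR, a receptor that clears serpin and protease pairs, fell by 0.51 (adjusted p = 0.00052), all by edgeR. Over the lines CO2 raised 1 and lowered 6 of them in the basal state (17.9% of all genes called) and lowered 4 with LPS (30.8%).

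Of 18 tested complement genes LPS raised 3 and lowered none in shNT cells at 5% CO2, a share under the 22.9% of all genes called: C3AR1, the receptor for C3a (3.08, adjusted p = 9.92e-13, edgeR), and the membrane protectors CD55 (1.34, adjusted p = 2.65e-07) and CD59 (0.85, adjusted p = 0.000557). CO2 over the lines lowered 2 in the basal state (17.9% of all genes called), and with LPS raised 3 and lowered 2 (30.8%). In shNT cells with LPS, where CO2 called 8.19% of all genes, 1 of the 18 complement genes was called. This was the C1r-like protease C1RL (-0.48, adjusted p = 0.0335, edgeR). All 5 proprotein convertases were tested. LPS called none of them in shNT cells at 5% CO2 (edgeR, with 1 at an unadjusted p under 0.05). CO2 over the lines called 2 with LPS, where 30.8% of all genes were called. These were PCSK7 (0.24) and FURIN (-0.27), the enzyme that SERPINB8 inhibits, and were named after their values were seen. LPS also raised 6 of the 14 chaperones and lowered none in shNT cells at 5% CO2, led by DNAJA1 (0.97, adjusted p = 0.000186, edgeR), HSPA1B (0.86, adjusted p = 0.00342), HSP90AA1 (0.48, adjusted p = 0.000837) and DNAJB1 (0.47, adjusted p = 0.0472). Of the 25 collagen genes it raised COL4A2 (0.92, adjusted p = 0.0311, edgeR) and P4HA1 (0.35, adjusted p = 0.00738) and lowered MIA3 (-0.29, adjusted p = 0.0318). The chaperone and collagen counts stand beside 22.9% of all genes called in that comparison (11.2% higher, 11.6% lower).

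The knockdown lines were then compared with shNT cells in each of the 4 conditions. Both sets of comparisons use the same shNT libraries, so they are given side by side and not as independent results. SERPINB8 was higher than in shNT cells in both lines in all 4 conditions. SERPING1 was higher in shNR4A2 cells in all 4 and in shNR4A3 cells in basal 10% CO2, and SERPINB2 was higher in basal shNR4A3 cells. In shNR4A2 cells 2, 2, 2 and 5 of the 9 were called at 5% CO2, 5% with LPS, 10% and 10% with LPS, beside 5.69%, 6.21%, 7.95% and 18.9% of all genes. In shNR4A3 cells 2, 1, 3 and 5 were called, beside 6.19%, 5.41%, 6.85% and 14.5%. In the same order, 25%, 26.2%, 25.6% and 36.6% of all genes had shNR4A2 and shNT libraries without overlap. For shNR4A3 and shNT libraries it was 24%, 25.7%, 23.9% and 33.2%.

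SERPING1, the C1 inhibitor, read 0.897, 0.562 and 0.702 RPKM in shNT cells at 5% CO2, 2.85, 2.80 and 2.26 in shNR4A2 cells and 1.39, 0.858 and 0.831 in shNR4A3 cells. The shNR4A2 libraries stood far above the shNT ones, at a log2 difference of 1.86 (SE 0.20, adjusted p = 0.000211, edgeR), while the shNR4A3 libraries overlapped them. The shNR4A2 differences in the other conditions were 1.66 (5% with LPS, adjusted p = 0.000992), 1.76 (10%, adjusted p = 9.49e-06) and 1.67 (10% with LPS, adjusted p = 4.74e-05), all by edgeR. In basal 10% CO2 the shNT libraries read 0.692, 0.503 and 0.562 RPKM and the shNR4A3 libraries 1.32, 0.976 and 1.09, apart at 0.93 (SE 0.21, adjusted p = 0.0106, edgeR). That call was lost without shNT 10% CO2 replicate 2 (0.0612) or shNR4A3 10% CO2 replicate 1 (0.0712). With LPS at 5% and 10% CO2 SERPING1 in shNR4A3 cells was called with the replicate number as a block (0.70 and 0.68, adjusted p = 0.00811 and 0.0185, edgeR). It was also called at 5% without shNR4A3 5% CO2 + LPS replicate 2 (0.0336) and at 10% without shNT 10% CO2 + LPS replicate 1 (0.0484) or shNR4A3 10% CO2 + LPS replicate 2 (0.0318), and in both when all 12 conditions shared 1 fit (0.0324 and 0.0408).

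SERPINB8 at 5% CO2 read 7.09, 6.43 and 6.77 RPKM in shNT cells, 11.7, 10.9 and 9.94 in shNR4A2 cells and 12.7, 13.5 and 12.5 in shNR4A3 cells. With LPS the 3 lines read 13.3, 12.1 and 12.1, then 24.4, 19.9 and 18.8, then 26.9, 22.1 and 25.8. In both states every knockdown library lay above every shNT library. The shNR4A2 differences were 0.69 (SE 0.10, adjusted p = 0.00244, edgeR), 0.75 with LPS, 0.51 at 10% CO2 and 0.64 at 10% with LPS, and the 10% call was lost without shNT 10% CO2 replicate 2 (adjusted p = 0.0753). The shNR4A3 differences were 0.93 (SE 0.09, adjusted p = 1.13e-05, edgeR), 0.99, 0.88 and 0.88 in the same order.

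SERPINB2 in shNR4A3 cells was above shNT by 0.76 in basal 5% CO2 (SE 0.17, adjusted p = 0.0125, edgeR) and by 0.61 in basal 10% CO2 (SE 0.15, adjusted p = 0.0151), on the libraries given in the CO2 comparison, which did not overlap. The first call was lost without shNT 5% CO2 replicate 1 (0.0636) or 2 (0.0708), the other without shNT 10% CO2 replicate 3 (0.0606) or shNR4A3 10% CO2 replicate 2 (0.0982). With LPS at 5% CO2 it was called with the replicate number as a block (0.70, adjusted p = 0.0475, edgeR).

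Most other calls lay in 10% CO2 with LPS. There SERPINE2 was above shNT by 1.74 in shNR4A2 cells (SE 0.10, adjusted p = 3.28e-07, edgeR) and by 0.44 in shNR4A3 cells (SE 0.10, adjusted p = 0.00977), the latter lost without shNT 10% CO2 + LPS replicate 3 (0.0598) and when all 12 conditions shared 1 fit (0.38). SERPINA1 read 0.791, 1.06 and 1.00 RPKM in shNT cells there, 1.78, 1.99 and 1.88 in shNR4A2 cells and 2.70, 1.63 and 2.12 in shNR4A3 cells, with both knockdown lines above shNT by 0.98 (SE 0.15, adjusted p = 0.000887, edgeR) and 1.17 (SE 0.20, adjusted p = 0.00156). SERPINB1 was higher in shNR4A3 cells by 0.60 (SE 0.13, adjusted p = 0.0137, edgeR), a call lost without shNT 10% CO2 + LPS replicate 3 (0.0669) or shNR4A3 10% CO2 + LPS replicate 3 (0.0501).

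SERPINH1 in 10% CO2 with LPS differed from shNT in opposite directions in the 2 knockdown lines, at -0.28 in shNR4A2 cells (SE 0.09, adjusted p = 0.0421, edgeR) and 0.32 in shNR4A3 cells (SE 0.09, adjusted p = 0.0391). Both calls were fragile, lost in 8 and 6 of 13 settings. The shNR4A2 call was lost without shNT 10% CO2 + LPS replicate 2 (0.167) or 3 (0.0659) or without any of the 3 shNR4A2 libraries (0.0716 to 0.107). The shNR4A3 call was lost without shNT 10% CO2 + LPS replicate 1 (0.115) or 3 (0.179) or shNR4A3 10% CO2 + LPS replicate 1 (0.0579) or 2 (0.136).

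Same-numbered libraries deviated together in 3 of the 4 shNR4A2 comparisons (not at basal 10% CO2) and in all 4 shNR4A3 comparisons, and the replicate number as a block added further calls. For shNR4A2 these were SERPINB1 (-0.23, adjusted p = 0.0278, edgeR), SERPINB6 (-0.27, 0.0239), SERPINE2 (0.46, 0.0247) and SERPINH1 (-0.28, 0.0142) in basal 5% CO2. At 5% with LPS they were SERPINA1 (0.64, adjusted p = 0.00131, edgeR), SERPINB9 (-0.48, 0.00247), SERPINE2 (1.57, 0.00966) and SERPINH1 (-0.27, 0.00892), and at 10% with LPS SERPINB6 (-0.20, 0.0357) and SERPINB9 (-0.46, 0.00106). For shNR4A3 they were SERPINH1 in basal 5% CO2 (0.30, adjusted p = 0.0131, edgeR) and SERPINA1 (0.83, 0.00386), SERPINB1 (0.54, 0.000141) and SERPINE2 (0.55, 0.0296) at 5% with LPS. Some of these were also called without the block once 1 library was left out. Without shNR4A2 5% CO2 + LPS replicate 2 these were SERPINE2 (2.04, adjusted p = 0.0271, edgeR) and SERPINA1 (0.78, 0.0412), without shNR4A2 10% CO2 + LPS replicate 1 SERPINB9 (-0.66, 0.0152), and without shNR4A3 5% CO2 + LPS replicate 2 SERPINB1 (0.68, 0.00824) and SERPINA1 (1.10, 0.00304). On all libraries DESeq2 called SERPINE2 in shNR4A2 cells (1.68, adjusted p = 0.018) and SERPINB1 (0.56, 0.00872) and SERPINA1 (0.86, 0.0276) in shNR4A3 cells at 5% CO2 with LPS. In the edgeR fit of all 12 conditions the same 3 were called (adjusted p = 0.000497, 0.0204 and 0.00638), as was SERPINA1 in shNR4A2 cells (0.0421).

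**Figure D5:**
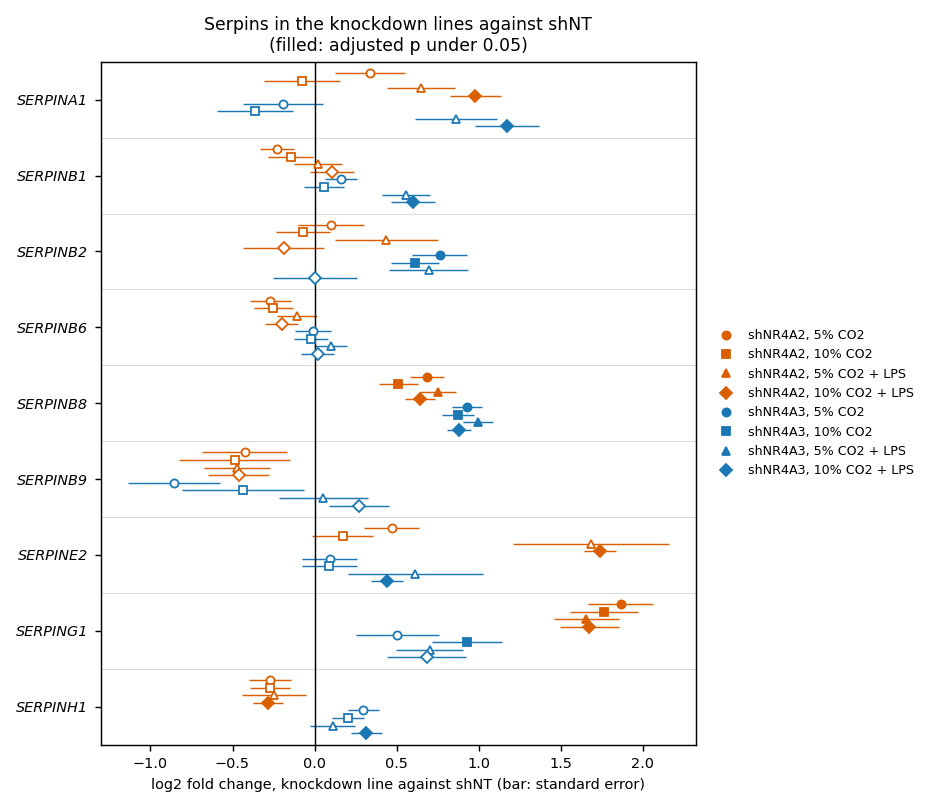
Difference from shNT cells (log2 fold change, bars of 1 SE) for each serpin in shNR4A2 and shNR4A3 cells, in 5% and 10% CO2 with and without LPS. SERPINB8 lies above 0 in all 8 comparisons, SERPING1 lies between 1.66 and 1.86 in shNR4A2 cells, and SERPINE2 reaches 1.74 in shNR4A2 cells at 10% CO2 with LPS.

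Whether the LPS response differed between a knockdown line and shNT cells was tested directly. At 10% CO2 SERPINE2 rose more in shNR4A2 cells, by 1.55 on the log2 scale (SE 0.19, adjusted p = 0.000721, edgeR), in a comparison that called 0.0451% of all genes, and this was lost only when the 12 conditions shared 1 fit (0.798). SERPINA1 rose more in shNR4A3 cells at 10% CO2, by 1.52 (SE 0.30, adjusted p = 0.0437, edgeR; 0.198% of all genes called). That call was lost on leaving out any 1 of the 12 libraries other than shNR4A3 10% CO2 replicate 3 and shNR4A3 10% CO2 + LPS replicate 2 (adjusted p from 0.0548 to 0.178), with scaling by library size alone (0.0558) and in the fit of 12 conditions (0.0747). SERPINB1 was called there with the replicate number as a block (0.53, adjusted p = 0.0112). At 5% CO2 edgeR called no gene in either line (0% of all genes, with 392 genes in shNR4A2 and 854 in shNR4A3 cells at an unadjusted p under 0.05), and the SERPINE2 difference of 1.21 in shNR4A2 cells had an SE of 0.56.

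Other SERPIN genes that reached 1 TPM in some condition were set beside the 9. SERPINF1, the secreted pigment epithelium-derived factor, stood at 45.6 to 69.5 RPKM in condition means, and 2 of its changes were called, 0.28 with LPS in shNR4A3 cells at 10% CO2 (adjusted p = 0.0022, edgeR) and 0.23 between shNR4A3 and shNT cells at 10% CO2 with LPS (adjusted p = 0.0433).

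SERPINB10, which shares exonic bases with SERPINB2, read 2.09 to 6.11 RPKM and, over the lines with LPS, fell with CO2 by 0.50 (adjusted p = 0.00296, edgeR). It also fell with LPS in shNR4A3 cells at 10% CO2 (-0.65, adjusted p = 0.00174) and was lower there than in shNT cells in the presence of LPS (-0.71, adjusted p = 0.00534). SERPINI1 (neuroserpin) was lower in shNR4A3 than in shNT cells in 3 conditions (-0.79, -1.01 and -0.87). SERPINA2, the neighbour and close relative of SERPINA1, had 0 counts in 17 of 18 basal libraries and 1 count in the other, and 5 to 34 counts in each LPS library, so that no fold is given. SERPINB9P1, a pseudogene of SERPINB9, was called higher with LPS in all 6 comparisons, from 0 to 5 counts to 5 to 20. The study's methods speak of unique gene hit counts and give no further detail on reads shared by SERPINB9 and its pseudogene. SERPINB4 went from 0 to 2 counts to 0 to 31, and SERPIND1, SERPINF2, SERPINH1P1 and SERPINI2 stayed low.

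Across the 12 condition means, the genes most like SERPINB2 by Pearson's r included RNF187, BAK1, ERLIN1 and APAF1 (all 0.98), and those most like SERPINH1 were MRPS25 and SNX19 (0.97), TRAF2 and GLIS2 (0.96) and ZDHHC16 (0.95). Among the members, SERPINE2 ran closest to SERPINA1 (0.95) and SERPINB9 (0.91), and SERPINB2 ran opposite to SERPINB9 (-0.97), SERPINE2 (-0.90) and SERPINA1 (-0.84). These are descriptions over 12 points that share lines, LPS and CO2.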

How the data were processed

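Poly(A) RNA of 36 THP-1 libraries was sequenced as paired reads. Per the labels and the study's methods, the authors used Trimmomatic 0.36 for trimming, STAR 2.5.2b for alignment to GRCh38 and featureCounts (Subread 1.5.2) for the deposited raw counts per gene. Which annotation release was used, whether strand was used, and whether single reads or pairs were counted is not given in the sources used here. Identifiers were matched to symbols for 56410 genes (98.1%).

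Genes were kept by edgeR's filterByExpr (minimum count 10, minimum total 15, 17720 genes), scaled by TMM and tested with the robust quasi-likelihood F test (edgeR 4.0.16, R 4.3.3), each comparison on its own libraries, with Benjamini-Hochberg adjustment over all genes kept. This replaced the Wald test of DESeq2 used in the study, which was run as an alternative (DESeq2 1.42.0). Replicates were 3 per condition. An exact permutation test of 3 against 3 cannot go below p = 0.1 and was not used. A replicate number was taken to pair libraries where, for genes of 10 CPM or more, each same-numbered pair's deviations correlated above 0.1. This held in 1 of 6 CO2, 5 of 6 LPS, 3 of 4 shNR4A2 and 4 of 4 shNR4A3 comparisons. The fits were tested on simulated data.

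The members and gene lists were chosen with earlier results of these data known. Named genes are the members, the knockdown targets, other SERPIN genes of 1 TPM or more in some condition, up to 4 called, non-overlapping genes per list and direction in 2 comparisons (LPS in shNT cells at 5% CO2, and CO2 in shNT cells with LPS), and the 5 genes most like SERPINB2 and SERPINH1. Some genes that this rule names are not reported here. Alternatives were other scalings, filters and tools, a replicate block, 1 fit over all conditions, a stricter threshold and single left-out libraries.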

Additional observations from a re-analysis of the deposited data

Results flagged for a closer look

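In all, 4 differences between groups passed a direct test of the difference. The LPS response of SERPINE2 at 10% CO2 was larger in shNR4A2 than in shNT cells by 1.55 on the log2 scale (SE 0.19, adjusted p = 0.000721, edgeR), and that of SERPINA1 was larger in shNR4A3 than in shNT cells by 1.52 (SE 0.30, adjusted p = 0.0437, edgeR). Over the 3 lines, the difference between 10% and 5% CO2 was higher with LPS than in the basal state by 1.03 for SERPINE2 (SE 0.27, adjusted p = 0.0338, edgeR) and by 0.92 for SERPINB9 (SE 0.26, adjusted p = 0.0423). In that order, these tests called 0.0451%, 0.198% and 2.93% of all genes. The SERPINE2 call by line was lost in 1 of 19 settings and that of SERPINA1 in 12 of 19. The CO2 by LPS call of SERPINE2 was lost in 10 of 43 settings and that of SERPINB9 in 20 of 43. SERPINE2 at 5% CO2 with LPS varied widely between libraries, from 19.5 to 67.0 RPKM in shNR4A2 cells, and it enters the SERPINE2 difference by CO2 but not the one by line.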

How the results depend on the processing

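Of 65 member results called among 253 tested, 51 were called in every setting and none changed sign. The count of calls for LPS (32) stayed within 32 to 33 over single left-out libraries, that for CO2 over the pooled lines (5) within 5 to 6, and that for the CO2 response by line was 0 throughout. The CO2 count of the relatives in single lines (2) became 4 with DESeq2, 5 with no filter, 1 with all 12 conditions in 1 fit and 0 at an adjusted p of 0.01 (1 to 4 over left-out libraries). Calls between shNR4A2 and shNT cells (11) ranged from 10 to 13 and those between shNR4A3 and shNT cells (11) from 8 to 14 over left-out libraries, with 6 for shNR4A3 at 0.01. The LPS response by line (2) gave 1 with library size only and 1 at 0.01, and 0 with 12 conditions in 1 fit (1 to 2 over left-out libraries). The CO2 by LPS difference (2) gave 1 with no filter and 0 in the fit of 12 conditions and at 0.01 (0 to 2 over left-out libraries). The cause was not tested, except that a stricter threshold calls fewer by construction.

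With the replicate number as a block, which gained 32 calls and lost none, the counts became 6 for CO2 in single lines, 21 for shNR4A2 and 18 for shNR4A3. Where the pairing check did not hold, as in 5 of 6 CO2 comparisons, the block results are not given beside the values. Over the pooled lines with LPS, where the pairing check held in no single line, the block also called SERPING1 (adjusted p = 0.0166, edgeR). Across settings the other gains and losses were 2 and 0 with RLE size factors, 2 and 3 with library size only, 6 and 0 with DESeq2, 10 and 1 with no filter, 0 and 1 with a filter at 1 CPM, and 8 and 8 with 12 conditions in 1 fit. Depth limits SERPINA1, SERPINB2, SERPINB9 and SERPING1, whose lowest libraries hold 29, 20, 16 and 36 counts. With 3 libraries in a group, a change that was not called is not shown to be absent.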
